A study of Mus musculus with 8 samples.

Results

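The RGS (regulator of G protein signaling) genes examined here were Rgs2, Rgs4, Rgs6, Rgs7, Rgs8, Rgs10, Rgs12, Rgs14, Rgs16 and Rgs17. They were chosen by name from the regulators of G protein signaling, and make up 10 of the 45706 genes in the count table. Bulk polyA RNA sequencing was performed on cultured hippocampal neurons of wild-type C57/Bl6 mice, prepared from embryos at embryonic day 18 and collected at 12 to 14 days in vitro. 4 wells received vehicle (H2O) and 4 wells received 1 µM of the peptide melanin-concentrating hormone (MCH), each for 4 h. MCH acts on Mchr1, a receptor that couples to inhibitory G proteins, and the comparison asks which transcripts differ after MCH. Each treatment was given to 2 wells in each of 2 cultures, and which well came from which culture was not given. The p-values therefore measure the spread between wells, part of which may be technical. A model tag in the labels names Alzheimer's disease, but the genotype of every well is wild type, and no disease allele is given.

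RGS proteins speed up the hydrolysis of GTP by G protein alpha subunits and so shorten the signal of G protein-coupled receptors. The R4 subfamily (Rgs2, Rgs4, Rgs8 and Rgs16 here) consists of small proteins with little outside the RGS domain. The R7 proteins (Rgs6 and Rgs7) work as a complex with the G beta subunit Gnb5. The R12 subfamily holds Rgs10, a small protein, and the larger scaffolds Rgs12 and Rgs14, and Rgs17 belongs to the RZ subfamily. In neurons, RGS proteins set the speed at which inhibitory receptors open potassium channels and close calcium channels, and transcripts of several R4 members follow neuronal activity.

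Rgs4, Rgs2 and Rgs16 had the smallest p-values of the 10 genes between the treatments, and their promoters are shown so that these results can be read beside the sequence. Each line gives the 250 bases before the RefSeq start (GRCm38.p6), written 5′ to 3′ on the strand of the gene. The capitals mark each match to TGACG or its reverse complement, the short form of the cAMP response element (CRE) that CREB proteins can bind.
Rgs4, chr1:169747643-169747892, minus strand: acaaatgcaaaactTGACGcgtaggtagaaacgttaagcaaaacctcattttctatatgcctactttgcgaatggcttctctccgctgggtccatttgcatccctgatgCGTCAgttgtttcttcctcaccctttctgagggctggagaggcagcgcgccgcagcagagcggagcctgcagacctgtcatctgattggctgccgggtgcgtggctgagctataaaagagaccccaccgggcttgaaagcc
Rgs2, chr1:144004150-144004399, minus strand: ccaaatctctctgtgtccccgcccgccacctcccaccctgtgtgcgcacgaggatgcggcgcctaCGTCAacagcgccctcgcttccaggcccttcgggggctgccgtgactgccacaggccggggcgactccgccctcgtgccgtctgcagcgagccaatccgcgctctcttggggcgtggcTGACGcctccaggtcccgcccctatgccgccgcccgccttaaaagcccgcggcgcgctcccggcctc
Rgs16, chr1:153740103-153740352, plus strand: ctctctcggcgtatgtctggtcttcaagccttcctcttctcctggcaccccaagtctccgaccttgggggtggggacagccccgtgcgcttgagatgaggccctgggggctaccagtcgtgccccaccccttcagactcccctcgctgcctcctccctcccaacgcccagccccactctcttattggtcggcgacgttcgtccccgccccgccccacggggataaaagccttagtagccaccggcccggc
The Rgs4 promoter held this motif at 236 and 141 bases before the start, and the Rgs2 promoter held it at 185 and 67 bases before the start. The Rgs16 promoter held no match. RefSeq gave 12 promoters for 9 of the 10 genes, of which 4 held the short CRE motif in this window, compared with 17.8% of all 32851 promoters in the table. The full CRE, TGACGTCA, was in 0 of the 12 and in 1.55% of all promoters. The AP-1 motif TGANTCA was in 2 of the 12, belonging to Rgs12 and Rgs17, and in 6.75% of all. The SRE (CArG box) was in 0 of the 12 and in 1.47% of all. Both strands were searched, and a full CRE also counts as a short one. The motif matches describe these windows and carry no statement about binding.

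The library totals ranged from 26083936 to 31844861 estimated counts per well. Neuronal markers were high in all wells, where the summed level of the 8 markers was 5589 to 6042 TPM with vehicle and 5677 to 6164 TPM with MCH. TPM is a level scaled to transcript length and library, so TPM of different genes can be compared. The wells also fell on 2 sides irrespective of treatment, with replicates 1 and 2 apart from replicates 3 and 4 on the first principal component (59.8% of the variance within treatments). The 6 astrocyte markers summed to 163 to 227 TPM in replicates 1 and 2 and to 767 to 905 TPM in replicates 3 and 4. Microglial markers summed to 8.72 to 13.96 TPM against 20.8 to 28.6 TPM in the same comparison. The neuronal sum was 5997 to 6164 TPM in replicates 1 and 2 and 5589 to 5725 TPM in replicates 3 and 4. Whether the sides are the 2 cultures was not given. In such bulk samples, fewer cells of a type and less RNA per cell cannot be told apart.

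All 10 RGS genes were transcribed in every well, and their levels spanned from Rgs14 at 6.83 TPM in its lowest well to Rgs4 at 399 TPM in its highest. Rgs4 was by far the most abundant, with 389 ± 7.81 TPM with vehicle and 334 ± 15.2 TPM with MCH (mean ± SD, n = 4 each), and ranked 440 of 24039 genes with a TPM above 0. Rgs2 followed with 120 ± 6.99 and 94.3 ± 16.0 TPM, then Rgs10 with 107 ± 14.97 and 105 ± 14.95 TPM, and Rgs8 with 105 ± 15.9 and 95.4 ± 23.0 TPM. Rgs2, Rgs10, Rgs8 and Rgs7 formed a group in which the ranges of neighbours overlapped, although Rgs8 was above Rgs7 in 8 of 8 wells. Rgs7 had 73.6 ± 6.41 TPM with vehicle and 69.9 ± 3.81 TPM with MCH. Rgs16 (34.1 ± 6.10 and 25.8 ± 4.73 TPM) and Rgs12 (28.0 ± 3.05 and 25.1 ± 3.19 TPM) overlapped with each other. Rgs17 (19.1 ± 1.49 and 18.4 ± 0.718 TPM) and Rgs6 (17.8 ± 2.29 and 17.7 ± 2.10 TPM) likewise overlapped. Rgs14, known for its high expression in the CA2 region, was the lowest at 8.48 ± 0.968 and 7.83 ± 0.739 TPM. The steps from Rgs4 to Rgs2, Rgs7 to Rgs16, Rgs12 to Rgs17 and Rgs6 to Rgs14 were free of overlap over the 8 wells.

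**Figure D1:**
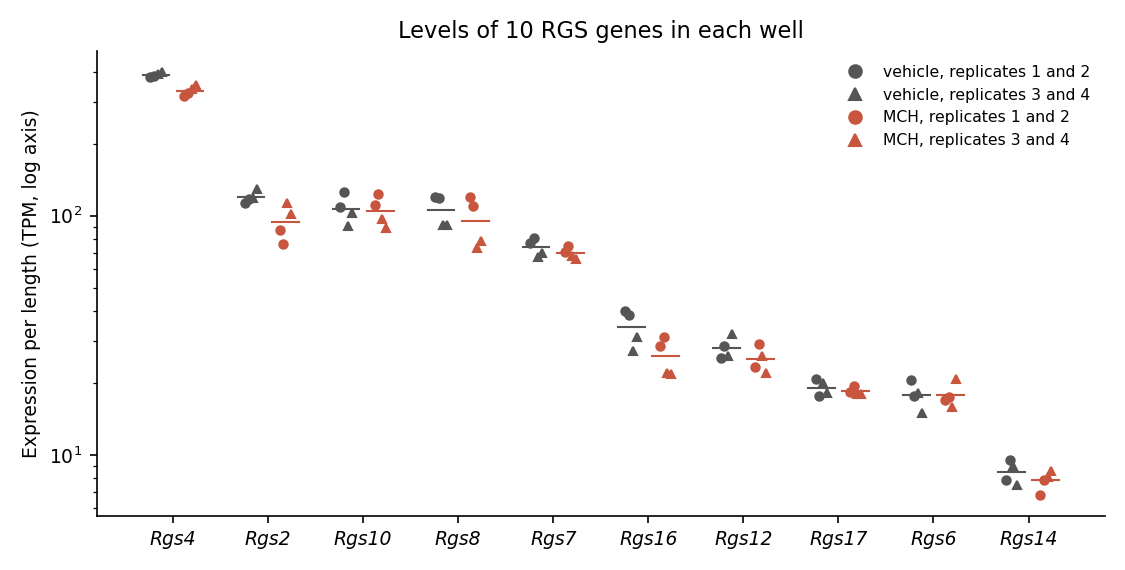
TPM on a log axis for the 10 RGS genes in each of the 8 wells, ordered by mean level (grey, vehicle; red, MCH; circles, replicates 1 and 2; triangles, replicates 3 and 4; lines, means). Rgs4 stands above all others in every well, and Rgs14 lies below all others.

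The R4 subfamily, with 10 genes in the table, carried 60.8% to 67.4% of all RGS TPM per well, and Rgs4 alone 34.4% to 38.3%. The summed R4 level was 698 ± 14.3 TPM with vehicle and 595 ± 15.8 TPM with MCH. The R7 sum was 122 ± 8.01 and 122 ± 6.30 TPM, the R12 sum 143 ± 16.0 and 138 ± 17.0 TPM, and the RZ sum 83.9 ± 8.41 and 88.1 ± 13.3 TPM. Of the 4 subfamily sums, the R4 sum had the largest difference between treatments, and the other 3 differed by less than their SD. These sums were not tested.

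Upon MCH treatment, Rgs4 fell, and it was the only one of the 10 genes to pass the test without a block. All 10 genes passed the filter on low counts and all 10 had a fitted log2 fold change (MCH over vehicle) below 0, with a median of −0.10. The value of Rgs6 came above 0 without MCH replicate 3 (0.015), and that of Rgs10 without vehicle replicate 2 (0.043). Among all 14962 genes tested the median was −0.0027 and 51% were fitted below 0. A gene was called when its p in the quasi-likelihood test of edgeR, adjusted after Benjamini-Hochberg over all genes tested, was below 0.05. This called 35 genes, 0.234% of those tested, of which 31 (0.207%) were lower with MCH. At an unadjusted p under 0.05, 3 of the 10 genes passed (Rgs2, Rgs4 and Rgs16), all lower, compared with 8.5% of all genes in either direction and 4.22% lower. The 10 genes were chosen with earlier results of these data known, so their count is a description.

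Wells with the same replicate number deviated together from the treatment means, as did all wells of the same side. With the replicate number as a block, 3 of the 10 genes were called lower (Rgs4, Rgs8 and Rgs16), where 2.25% of all genes were called lower and 3.98% in either direction. With the side as a block, 4 were called lower (these and Rgs2), where 2.61% of all genes were called lower and 4.46% in either direction. Since the sides were read from the same counts, the side block describes these wells. The labels number the wells but do not say that wells with the same number belong together. The replicate block and the pairs named below therefore join wells by number only.

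**Figure D2:**
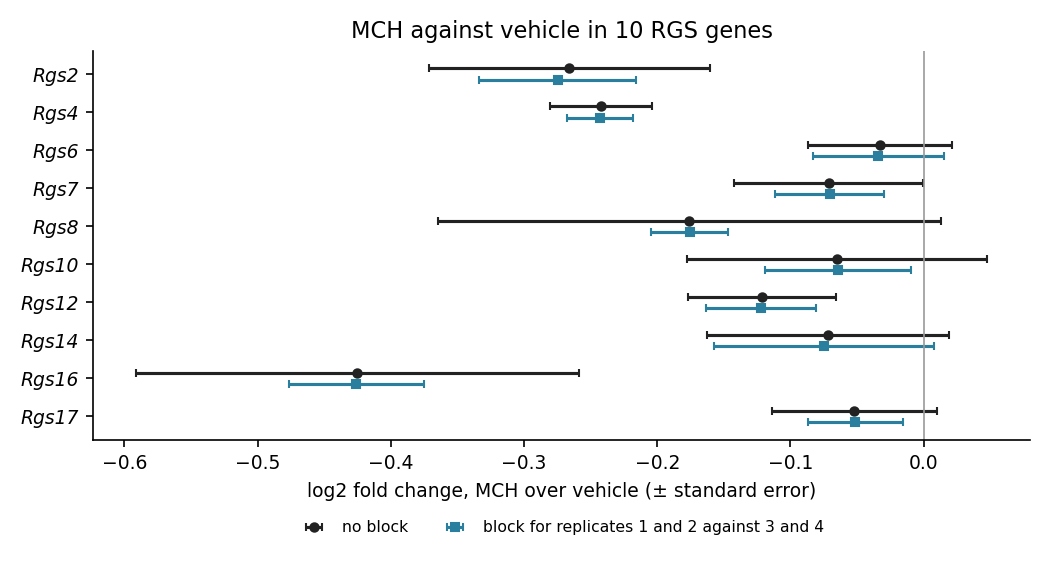
Fitted log2 fold change of MCH over vehicle for each of the 10 RGS genes, with its standard error, without a block (circles) and with the side as a block (squares). All points lie below 0, from Rgs6 at −0.03 to Rgs16 at −0.43, and the block narrows the errors of Rgs8 and Rgs16 most.

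Rgs4 (ENSMUSG00000038530, chromosome 1, 169741477 to 169747642, minus strand, GRCm38) encodes a small GTPase-activating protein for Gi and Gq alpha subunits that is abundant in forebrain neurons. Expression in CPM (counts scaled to the library total with TMM factors, not to length) was 610, 619, 615 and 634 in vehicle replicates 1 to 4 and 499, 512, 533 and 551 in MCH replicates 1 to 4. Every MCH well was below every vehicle well. This was so for Rgs4 alone of the 10 genes, and 2.96% of all genes tested had all MCH wells lower and 6.03% had no overlap in either direction. The means were 620 ± 10.2 and 524 ± 22.6 CPM, and Rgs4 fell by 15.5% (log2 fold change −0.24, SE 0.04, adjusted p = 0.0488 in edgeR's quasi-likelihood test).

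The change of Rgs4 was small and close to the threshold. Among the 35 called genes it had the second smallest size, where the smallest was 0.20 and the median 0.42 on the log2 scale, and it was number 32 by p-value. The call was lost in 5 of the 9 alternatives that kept all wells, where the adjusted p ranged from 3.8e-08 to 0.141, and it was lost when any single well was left out (adjusted p 0.0837 to 0.204 in edgeR). It was kept with the replicate block (adjusted p = 2e-05), with the side block (adjusted p = 5.8e-06) and in DESeq2 (adjusted p = 3.8e-08), which called 1.14% of all genes and 0.648% lower. With the side block, Rgs4 stayed called without any one of the 8 wells. Side block fits with 1 well left out were chosen after seeing the data. The share of all genes called in them is not given here, so calls in them are a description. Within replicates 1 and 2 the MCH difference was −0.28, and within replicates 3 and 4 it was −0.20, both on the log2 scale.

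Rgs16 (ENSMUSG00000026475, chromosome 1, 153740349 to 153745468, plus strand) encodes another R4 protein acting on Gi and Gq, and its transcript is inducible in many cell types. It measured 49.7, 48.1, 33.2 and 38.4 CPM in vehicle replicates 1 to 4 and 34.7, 38.2, 26.8 and 26.4 CPM in MCH replicates 1 to 4. The MCH well was lower in all 4 pairs with the same number, but the treatments overlapped because replicates 1 and 2 were high in both. The means were 42.3 ± 7.88 and 31.5 ± 5.86 CPM, a difference of −25.5%, the largest of the 10 genes. Without a block it did not pass the test (log2 fold change −0.43, SE 0.17, adjusted p = 0.534 in edgeR). With the replicate block the adjusted p was 6.3e-05, and with the side block it was 3e-05 (SE 0.05). The log2 difference was −0.42 within replicates 1 and 2 and −0.42 within replicates 3 and 4, so the same size was found on both sides. With the side block, Rgs16 stayed called without any one of the 8 wells, and so did Rgs8.

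Rgs8 (ENSMUSG00000042671, chromosome 1, 153653025 to 153700323, plus strand) lies beside Rgs16 and encodes an R4 protein known to speed up the gating of GIRK potassium channels. It measured 339, 333, 226 and 242 CPM in vehicle replicates 1 to 4 and 291, 302, 203 and 212 CPM in MCH replicates 1 to 4. The wells split by side before they split by treatment, as replicates 1 and 2 were above replicates 3 and 4 whatever the treatment, and MCH was lower in all 4 pairs. The means were 285 ± 59.2 and 252 ± 52.0 CPM, a difference of −11.5%. Without a block the log2 fold change was −0.18 (SE 0.19, adjusted p = 0.905 in edgeR). Leaving out 1 well moved this value by over 1.5 times for 6 of the 8 wells. It was −0.08 without MCH replicate 3 or vehicle replicate 1, −0.09 without MCH replicate 4 or vehicle replicate 2, and −0.27 without MCH replicate 2 or vehicle replicate 3. With the side block it stayed between −0.19 and −0.15 whichever well was left out. The replicate block gave an adjusted p of 0.00124 and the side block 0.00096 (SE 0.03). The log2 difference was −0.18 within replicates 1 and 2 and −0.17 within replicates 3 and 4.

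Rgs2 (ENSMUSG00000026360, chromosome 1, 143999338 to 144004161, minus strand) encodes an R4 protein that prefers Gq and is known as an activity-regulated gene in neurons. It measured 128.3, 132.1, 133.9 and 149.9 CPM in vehicle replicates 1 to 4 and 101.9, 94.5, 127.8 and 128.3 CPM in MCH replicates 1 to 4. MCH replicates 1 and 2 stood below all other wells, whereas MCH replicate 4 lay just above vehicle replicate 1. The means were 136 ± 9.52 and 113 ± 17.5 CPM, a difference of −16.8% (log2 fold change −0.27, SE 0.11, adjusted p = 0.536 in edgeR without a block). The adjusted p was 0.0747 with the replicate block and 0.0323 with the side block (SE 0.06). The log2 difference was −0.41 within replicates 1 and 2 and −0.15 within replicates 3 and 4, and the difference between sides was not tested. The call with the side block was lost when MCH replicate 1 or vehicle replicate 1, 2 or 4 was left out, with adjusted p between 0.00013 and 0.126 over the 8 wells.

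**Figure D3:**
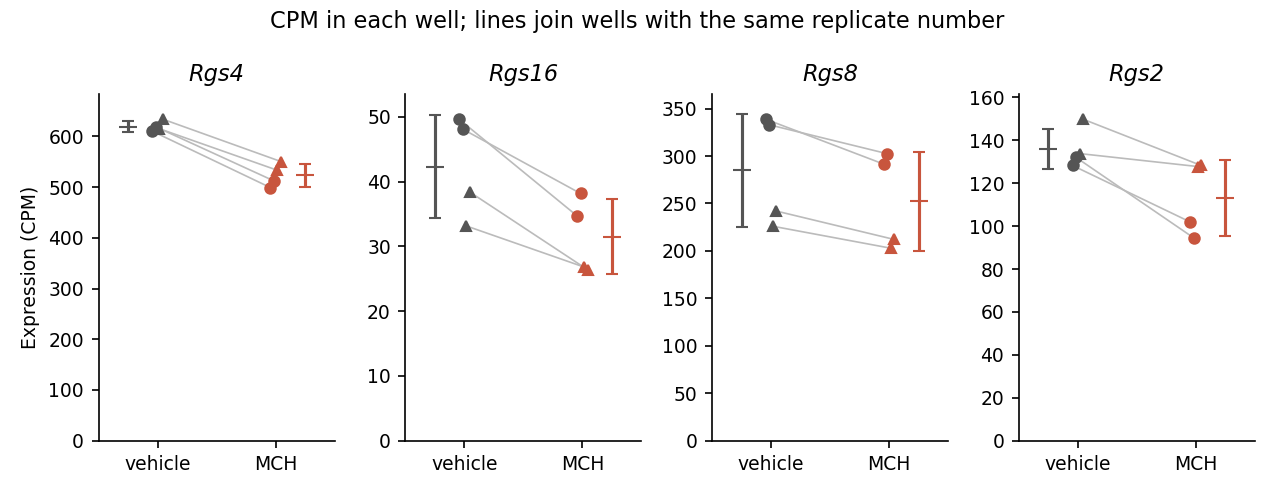
CPM of Rgs4, Rgs16, Rgs8 and Rgs2 in each well (grey, vehicle; red, MCH; circles, replicates 1 and 2; triangles, replicates 3 and 4), with lines joining wells of the same replicate number and bars for mean ± SD, n = 4. All 16 lines slope down, and only in Rgs4 do all MCH wells lie below all vehicle wells.

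Neither R7 member passed the test. Rgs7 (ENSMUSG00000026527, chromosome 1, 175059087 to 175492500, minus strand) encodes the main R7 protein of the forebrain and ranged from 73.0 to 93.0 CPM. Its log2 fold change was −0.07 (SE 0.07, adjusted p = 0.886 in edgeR), with MCH lower in 3 of 4 pairs. Rgs6 (ENSMUSG00000021219, chromosome 12, 82588292 to 83162056, plus strand) encodes an R7 protein best known for limiting the parasympathetic signal in the heart, and ranged from 29.6 to 34.8 CPM. Its log2 fold change was −0.03 (SE 0.05, adjusted p = 0.972 in edgeR), with MCH lower in 2 of 4 pairs. The R7 partners gave 0 calls among the 4 tested of 5, where 0.234% of all genes were called. Among these, Gnb5, the obligate G beta subunit, had a log2 fold change of −0.12 (SE 0.05, adjusted p = 0.495 in edgeR). The others were the membrane anchors Rgs7bp (−0.03) and Rgs9bp (0.49), and Gpr158 (0.08), an orphan receptor that binds Rgs7. Rgs9bp had only 9 to 30 counts per well (SE 0.32, adjusted p = 0.76 in edgeR). Its log2 difference was 1.12 within replicates 1 and 2 and −0.11 within replicates 3 and 4.

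In the R12 subfamily, Rgs12 (ENSMUSG00000029101, chromosome 5, 34949445 to 35039644, plus strand) encodes a scaffold that binds Gi and Ras family proteins. It ranged from 45.8 to 50.6 CPM with vehicle and from 42.1 to 47.9 CPM with MCH, and MCH was lower in all 4 pairs. Its log2 fold change was −0.12 (SE 0.06, adjusted p = 0.602 in edgeR), with an adjusted p of 0.131 with the replicate block and 0.105 with the side block, so it passed in none of these fits. Rgs14 (ENSMUSG00000052087, chromosome 13, 55369732 to 55384687, plus strand) encodes a scaffold known to restrain plasticity of CA2 synapses, and ranged from 8.40 to 11.1 CPM. Its log2 fold change was −0.07 (SE 0.09, adjusted p = 0.931 in edgeR). The 5 CA2 markers summed to 685 to 773 TPM with vehicle and 677 to 740 TPM with MCH. Most of this sum came from Pcp4 (364 to 410 TPM over the wells), Necab2 (142 to 200 TPM) and Ptpn5 (137 to 161 TPM). Amigo2 was at 12.04 to 14.94 TPM and Map3k15 at 0.45 to 0.98 TPM. The part of CA2 neurons in the level of Rgs14 was not tested. Rgs10 (ENSMUSG00000030844, chromosome 7, 128373621 to 128418758, minus strand) encodes a small protein known from microglia as well as neurons. It ranged from 26.4 to 37.2 CPM, with a log2 fold change of −0.07 (SE 0.11, adjusted p = 0.977 in edgeR). Its place near the top by TPM comes with an effective transcript length of 485 bases, so its counts were few for its level. Rgs10 was higher in replicates 1 and 2, the wells with the lower microglial sum. Of the 10 microglial markers, 7 passed the filter (Cx3cr1, Csf1r, Itgam, Ptprc and the 3 C1q genes) and P2ry12, Tmem119 and Aif1 did not. The C1q genes were the highest, at up to 9.14 (C1qa), 8.14 (C1qb) and 7.71 TPM (C1qc). On the log2 CPM scale, replicates 1 and 2 minus replicates 3 and 4 gave −1.36, −1.34 and −1.43 for C1qa, C1qb and C1qc. The difference was −1.35 for Cx3cr1, −0.49 for Itgam, −0.31 for Ptprc and 0.10 for Csf1r, so the markers did not move as one. The part of microglia in the level of Rgs10 was not tested.

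Rgs17 (ENSMUSG00000019775, chromosome 10, 5825663 to 5922400, minus strand), the RZ member, encodes a brain-rich regulator of Gi and Gz that is tied to opioid receptors. It ranged from 72.4 to 87.4 CPM, with a log2 fold change of −0.05 (SE 0.06, adjusted p = 0.922 in edgeR) and MCH lower in 3 of 4 pairs.

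The sides differed more than the treatments for several of the genes. On the log2 CPM scale, replicates 1 and 2 minus replicates 3 and 4 gave 0.52 for Rgs8 (1.43-fold), 0.45 for Rgs16 (1.37-fold) and 0.29 for Rgs10. The differences were 0.16 for Rgs7, 0.15 for Rgs17, 0.12 for Rgs12, 0.07 for Rgs6, −0.06 for Rgs4 and −0.11 for Rgs14. Rgs2, like Rgs4 and Rgs14, was higher in replicates 3 and 4, at −0.25. Only Rgs8 differed by more than 0.5, as did 13.1% of all genes tested. Among the RGS genes outside the 10, Rgs5, a pericyte and vessel-wall gene, stood at −1.19 and Rgs20, of the RZ subfamily, at −0.76. Rgs5 measured 11.3 to 15.4 CPM in replicates 1 and 2 and 29.8 to 34.0 CPM in replicates 3 and 4. Fibroblast and vessel markers summed to 15.2 to 21.6 TPM and 47.9 to 50.7 TPM in the same wells. Most of this sum was Dcn, at 13.5 to 45.2 TPM over the wells. Pdgfrb was at 0.46 to 1.40 TPM and Pecam1 at 0.12 to 1.12 TPM, and Cldn5 was below the filter. The part of fibroblasts and vessel cells in the side differences was not tested.

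**Figure D4:**
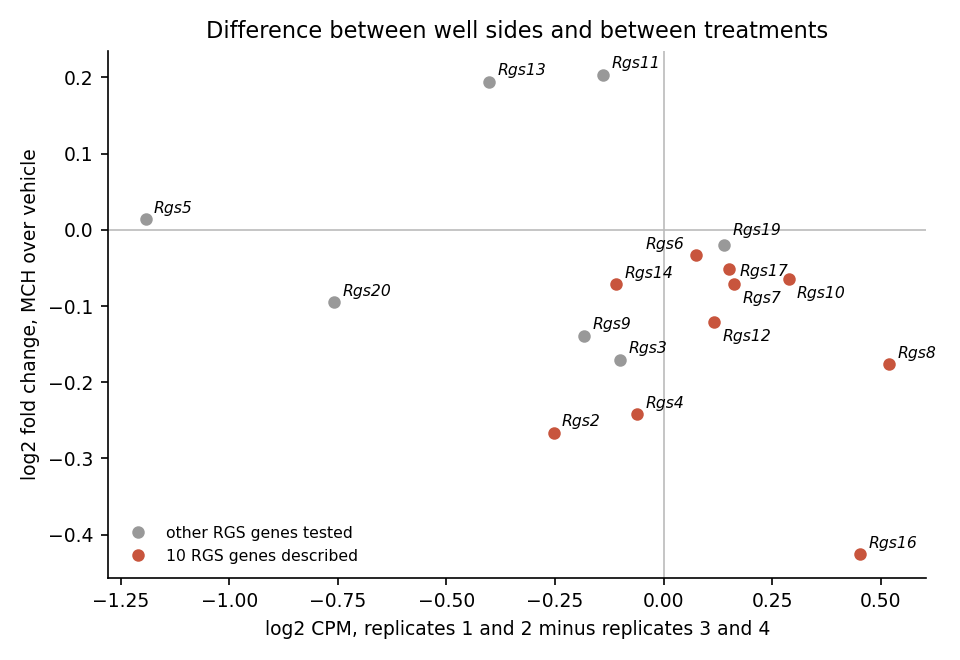
Difference between the sides (log2 CPM, replicates 1 and 2 minus replicates 3 and 4) against the log2 fold change of MCH over vehicle, for the 10 RGS genes (red) and the 7 other RGS genes tested (grey). Rgs8 and Rgs16 lie at the right and Rgs2 at the left among the 10, while Rgs5 and Rgs20 lie furthest to the left.

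As a description over the 8 wells, deviations from the treatment means were compared between genes, and all of these correlations carry the side difference. Rgs8 and Rgs16 deviated together (r = 0.98), as did Rgs8 and Rgs10 (r = 0.90) and Rgs2 and Rgs4 (r = 0.87), whereas Rgs2 and Rgs8 deviated in opposite directions (r = −0.81). The genes with the most similar pattern were Slc40a1 and Pole2 for Rgs4, Rpsa and Cdv3 for Rgs2, Impact and Dner for Rgs8, and AI854703 and Tmem169 for Rgs16. They were Agpat1 and B3gat3 for Rgs7, Ddx46 and Unc5c for Rgs6, Pdxdc1 and Dlg4 for Rgs10, and Ddx25 and Tsc22d2 for Rgs12. They were BC055324 and Rbm5 for Rgs14, and Dzip3 and Nphp4 for Rgs17. Each pair was the highest of all tested genes with a symbol, for example r = 0.998 between Rgs4 and Slc40a1 and r = 0.989 between Rgs2 and Rpsa.

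The annotated transcripts differed in number between the genes, from 1 for Rgs16 to 22 for Rgs6, and 78 in all. Of these, 33 passed the filter, 22 had no counts in any well and 20 held at least 10% of the TPM of their gene. Rgs16-201, the only annotated transcript of Rgs16, carried all of it. Rgs4-201 carried 99.9% of Rgs4, Rgs14-201 97.2%, Rgs17-204 78.1%, Rgs8-202 73.4% and Rgs10-201 71.1%, as means over the wells. Rgs7 was spread over Rgs7-207 (36.5%), Rgs7-206 (31.97%) and Rgs7-203 (23.9%), and the top transcripts of Rgs12 and Rgs6 were Rgs12-206 (46.3%) and Rgs6-208 (44.5%). Lesser transcripts were Rgs10-206 (28.6%), Rgs6-203 (13.5%), Rgs6-216 (12.6%), Rgs12-201 (11.97%), Rgs8-207 (10.98%), Rgs17-202 (10.9%) and Rgs12-204 (10.3%), of which Rgs6-203, Rgs6-216, Rgs12-204 and Rgs17-202 were at 0 in at least 1 well. Rgs2 was split between Rgs2-202 (65.5%) and Rgs2-201 (26.01%), where Rgs2-201 is annotated as a target of nonsense-mediated decay. TPM is scaled to length, so the shares of the shorter transcripts rest on few counts. Rgs2-201 had at most 309.5 estimated counts in any well, where Rgs2-202 had at least 2368.3. Rgs10-206 had at most 80.4 where Rgs10-201 had at least 699.96, and Rgs8-207 at most 81.9 where Rgs8-202 had at least 5010.2. Rgs2-201 measured 34.1 ± 2.83 TPM with vehicle and 21.5 ± 7.91 TPM with MCH, but did not pass the test of transcripts (log2 fold change −0.69, SE 0.26, adjusted p = 1 in edgeR).

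Over 33527 transcripts tested, edgeR called 0 (4.4% had an unadjusted p under 0.05), so 0 RGS transcripts were called. With the side block edgeR called 6 transcripts (0.0179%; 0.0149% lower), and 0 of them were of these genes. DESeq2 called 281 transcripts (0.838%), of which 1 was of these genes, Rgs4-201 (adjusted p = 2.6e-08). The deposited tables do not carry the uncertainty with which reads were assigned to transcripts. Genes overlapping the 10 held at most 6 counts in any well.

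**Figure D5:**
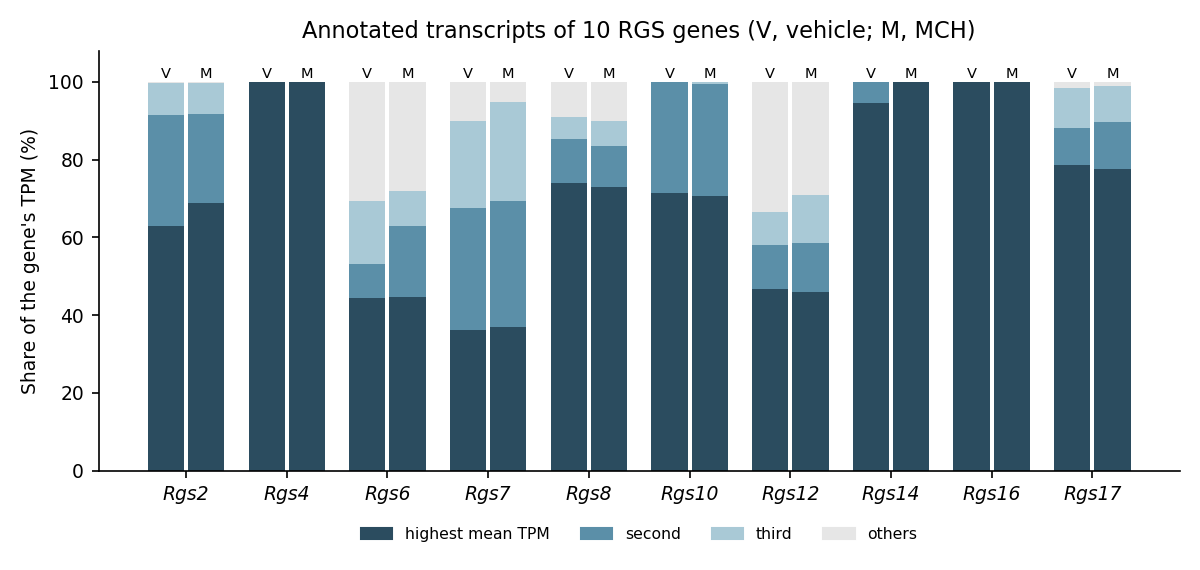
Share of each gene's TPM held by its annotated transcripts, as percent of the mean TPM with vehicle (V) and with MCH (M), stacked from the transcript with the highest mean. Rgs4, Rgs14 and Rgs16 rest almost wholly on 1 transcript, while Rgs6, Rgs7 and Rgs12 are spread over several.

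Of the 12 RGS genes outside the 10, 7 were tested and 0 were called without a block, with the replicate block or with the side block. Of these 7, 4 were fitted lower and 3 higher, with a median of −0.02. The log2 fold changes were −0.17 for Rgs3, 0.01 for Rgs5, −0.14 for Rgs9, 0.20 for Rgs11, 0.19 for Rgs13, −0.02 for Rgs19 and −0.09 for Rgs20. Rgs1, Rgs18, Rgs21, Rgs22 and Rgsl1 were below the filter, and Rgs18 had no count in any well.

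The lists of RGS targets and other regulators are given beside the 0.234% of all genes called without a block, so that 0 calls in lists this short say nothing particular about them. Of the 9 G alpha subunits they act on, 7 were tested and 0 called, with a median of 0.0047. Of the 6 other regulators of G alpha (the Gpsm and Ric8 proteins and Pcp2), 5 were tested and 0 called, all 5 fitted lower with a median of −0.08. Of the 4 GIRK channel subunits, 3 were tested and 0 called. Mchr1 itself measured 9.91 ± 0.820 CPM (vehicle) and 9.70 ± 0.297 CPM (MCH) (log2 fold change −0.03, adjusted p = 0.994 in edgeR). The marker lists gave 0 calls without a block. Inhibitory neuron markers summed to 1017 to 1261 TPM with vehicle and 948 to 1191 TPM with MCH. By side, the sum of these markers was 1165 to 1261 TPM in replicates 1 and 2 and 948 to 1063 TPM in replicates 3 and 4. Of these 6, 1, Gad1, which makes GABA, was called lower with either block (log2 fold change −0.10, adjusted p = 0.0349 with the replicate block and 0.0267 with the side block in edgeR). Over all genes, 2.25% were called lower with the replicate block and 2.61% with the side block. The other marker lists gave 0 calls with either block, so this 1 call describes Gad1 only. Oligodendrocyte lineage markers summed to 34.5 to 40.5 TPM in replicates 1 and 2 and 89.9 to 109.6 TPM in replicates 3 and 4, with Sox10 and Mog at 0 in every well. Most of this rise was Olig1, at 20.4 to 90.9 TPM over the wells. On the log2 CPM scale the sides differed by −1.92 for Olig1, −2.21 for Olig2 and −0.98 for Cspg4. The difference was −0.12 for Mbp and −0.07 for Pdgfra. The astrocyte sum was 198 to 792 TPM with vehicle and 163 to 905 TPM with MCH, so it moved with the side rather than with the treatment.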

How the data were processed

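Libraries were made by the submitters from polyA RNA with a stranded kit. The authors ran the nf-core/rnaseq pipeline (version 3.0) with Salmon on GRCm38, and deposited estimated counts per gene and, per well, estimated counts and TPM per transcript. The annotation is not given in the sources used here. Gene symbols came from GENCODE vM21 (45143 of 45706 gene IDs matched, and 108214 of 109617 transcript IDs), and promoters from RefSeq (GRCm38.p6).

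The deposited estimated counts (9.13% not whole) were rounded. Genes were kept by filterByExpr (count minimum 10, total minimum 15) and fitted with edgeR 4.0.16 (TMM, robust quasi-likelihood) in R 4.3.3 over all 8 wells, with Benjamini-Hochberg adjustment over all genes tested and a threshold of 0.05. The SE is the log2 fold change over the square root of F. TPM was summed per gene. DESeq2 1.42.0, limma voom (limma 3.58.1), other scalings and filters, a length offset, replicate and side blocks, and leaving out each well were alternatives. The scripts were tested on simulated data.

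Depth was 26083936 to 31844861 estimated counts per well. Counts per gene of the 10 ranged from 252 (Rgs14) to 17451 (Rgs4), and counting error is smallest for Rgs4. Groups came from the labels. Same-numbered wells deviated together (correlation 0.445 to 0.545 in all 4 pairs), as did other wells of the same side (0.475 to 0.521), and wells of opposite sides deviated apart (−0.548 to −0.438).

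All 10 RGS genes are named, with every tested member of the other RGS and R7 partner lists, called members of the other lists, Mchr1, the 2 genes most alike each of the 10, and transcripts with at least 10% of a gene's TPM on average. The genes, lists and tests were chosen with earlier results of these data known.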

Additional observations from a re-analysis of the deposited data

Results flagged for a closer look

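In the search over 42 groups of 4 wells for a well far from the others, 1 stood out. Gnb5, the G beta partner of Rgs6 and Rgs7, was at 61.2 CPM in vehicle replicate 3, where the other 3 vehicle wells were at 67.0 to 68.1 CPM. Its gap to the nearest well was 0.837 of the range, above Dixon's 95% critical value for 4 wells. Chance gives about 1 in 20 such groups.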

How the results depend on the processing

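Of 250 alternative values of the 10 RGS genes, 246 were fitted below 0 and 4 above 0, and 212 kept their side of the threshold, 25 passed it newly and 13 no longer passed it. The number of these genes called, 1, became 0 with a count minimum of 50, no filter, upper-quartile factors, the length offset or limma voom, and 0 whichever well was left out. It became 3 with the replicate block and 4 with the side block (3 to 4 with the side block and 1 well left out, an alternative chosen after seeing the data). The replicate block changed the calls of Rgs8 and Rgs16 and of no other of the 10.

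Over all genes the count of 35 became 170 in DESeq2, 7 with the length offset, 596 with the replicate block and 668 with the side block, and 4 to 29 with 1 well left out. The count of RGS transcripts called, 0, became 1 in DESeq2. The count called in the other G protein signalling lists stayed at 0, except with the side block and 1 well left out. In those fits Rgs3, Rgs11, Gnb5 and Gnai3 were each called in 1 of the 8. With the side block over all wells, Rgs11 was fitted higher and the others lower. The share of all genes called in those fits is not given here. The causes of these differences were not tested. With 4 wells per treatment, the median SE over the 10 genes without a block was 0.081 on the log2 scale. The smallest change called over all genes in that fit was 0.20. Changes of −0.27 (Rgs2, own SE 0.11) and −0.43 (Rgs16, own SE 0.17) were not called in it. Changes larger than the smallest one called can therefore go uncalled where the SE is large.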
